A study of Mus musculus with 9 samples.

Results

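The Golgi glycosyltransferases described here are the 69 genes, of 15384 in the MyC-CaP count table, whose symbols begin with A4galt, Ugcg or the family names B3gal, B3gnt, B4gal, St3gal, St6gal, St8sia, Galnt, Mgat, Fut or Gcnt. The family was chosen by gene symbol, but A4galt was singled out because its measured counts were much lower after 24 hours, so the levels and fold changes of A4galt are given as a description with no p-value. MyC-CaP cells come from a prostate tumor of a transgenic mouse whose Myc is driven by the prostate-specific, androgen-responsive probasin promoter, and they still respond to androgen. Serum- and calcium-starved cells were given mouse ASPN made as a recombinant protein, at 100 ng/mL, and collected at 0, 12 or 24 hours (ASPN is asporin, a small proteoglycan of the matrix that tumor fibroblasts secrete), with 3 biological replicate libraries per time and 9 libraries in all. The time 0 libraries too are labelled as ASPN-treated, and no library holds cells kept for 12 or 24 hours without it, so ASPN and time in culture cannot be told apart in any comparison. All 9 libraries come from the same cell line, and the p-values measure the spread between cultures of that line.

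Glycosyltransferases of the Golgi build glycan chains by moving sugars from nucleotide sugar donors onto proteins and lipids. Glycosphingolipids start with glucose on ceramide, are extended to lactosylceramide and then branch into globo-series lipids or into gangliosides, which carry sialic acid. N-glycans are branched by the Mgat enzymes, mucin-type O-glycans are started by the Galnt enzymes, and many chains of both kinds are extended by galactose and N-acetylglucosamine and capped by sialic acid or fucose.

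Library totals ranged from 41881191 to 52993821 counts. The 69 genes took 0.222% to 0.227% of the counts of the time 0 libraries, 0.212% to 0.215% of the 12-hour and 0.125% to 0.133% of the 24-hour libraries, and the ranges did not overlap between times. A count of 3, used as the floor of detection, equals 0.0566 to 0.0716 CPM, where CPM is the usual count scaled to library size. Below, levels are CPM scaled by TMM factors, which were 0.899 to 0.914 in the 24-hour libraries and 1.04 to 1.07 in the other libraries. Of the 8 epithelial markers examined, not all of which are named here, Krt8, Krt19 and Cldn4 were present. Krt19 was at 89.4 CPM at time 0 and rose to 138 CPM at 24 hours. Among the 5 epithelial markers tested at 24 hours against time 0, 1 was called higher and 1 lower, against 12.0% and 16.8% of all genes. Epcam, Cdh1 and Cldn7, which define many epithelia, had at most 10 counts in any library. The summed level of the 4 fibroblast markers in the table (of 7 examined) was 13.0 to 14.1 CPM at time 0, 12.2 to 12.5 CPM at 12 hours and 9.09 to 10.3 CPM at 24 hours, nearly all of it Pdgfra. Dcn, a low fibroblast marker, went the other way, from 0.181 CPM at time 0 to 0.418 CPM at 24 hours (log2 fold change 1.20, edgeR adjusted p = 0.044). Whether other cell types have a part in the results was not tested. The 5 of 7 immune and 4 of 6 endothelial markers in the table summed to at most 0.815 CPM, and Col1a1, Pdgfrb, Cd3e and Cdh5 were at 0 to 8 counts. In such bulk libraries, fewer cells of a kind and less RNA per cell cannot be told apart.

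The windows upstream of the RefSeq starts of A4galt and St3gal3 are shown because these were the members with the lowest and the highest fold change at 24 hours. Both are from GRCm38.p6 and read 5′ to 3′ on the minus strand, and bases inside the GENCODE gene model were left out. The A4galt window lies at chr15:83251775-83251979 and the St3gal3 window at chr4:118134947-118135196. Capitals mark matches on either strand to the AP-1 letters TGANTCA and to the Sp1 letters GGGCGG.
A4galt: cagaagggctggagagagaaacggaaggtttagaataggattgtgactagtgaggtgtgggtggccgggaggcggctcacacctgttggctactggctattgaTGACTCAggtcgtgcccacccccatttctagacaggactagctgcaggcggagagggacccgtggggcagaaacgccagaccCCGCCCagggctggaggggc
St3gal3: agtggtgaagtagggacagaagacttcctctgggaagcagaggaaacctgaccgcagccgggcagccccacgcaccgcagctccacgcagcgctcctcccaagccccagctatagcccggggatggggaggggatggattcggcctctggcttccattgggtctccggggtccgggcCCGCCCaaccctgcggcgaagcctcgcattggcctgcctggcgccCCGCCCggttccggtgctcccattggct

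In the 250 bases before its RefSeq start, A4galt held 1 match to the AP-1 letters, which began 147 bases before the start, and 3 to the Sp1 letters, of which the printed 205 bases hold 1; the other 2 lie at 49 and 17 bases before the start, in or across the 45 bases left out. The St3gal3 window held 2 Sp1 matches and none to AP-1. Windows of this length were found for 34 of the tested members, and 4 of them (11.8%) held the AP-1 letters, against 5.40% of 9147 tested genes and 7.82% of all 27025 genes with a window. The Sp1 letters were in 28 of 34 (82.4%), against 64.8% of tested and 35.4% of all genes, and the E-box letters CACGTG in 1 of 34 (2.94%), against 10.1% and 6.86%. The NF-kB letters, GGGAC directly followed by TTTCC, were in 0 of 34 windows and in 0.230% of tested genes, and the looser form, GGG and CC with NNNNN between them, was in 70.6% of the members and 66.9% of tested genes. The matches describe letters and not bound sites.

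At 12 hours the glycosyltransferases were mostly close to their levels at time 0, and at 24 hours many of those tested were lower. Of the 69 genes, 48 had enough counts to be tested, and genes were called at an adjusted p of 0.05 or less with a fold change of at least 1.5 (edgeR's quasi-likelihood test, Benjamini-Hochberg adjustment over all tested genes). At 12 hours, 2 of 48 were called higher, against 1.5% of 11410 genes, and 0 of 48 were called lower, against 0.0964%. By the adjusted p alone, 5 of 48 were higher at 12 hours (6.85% of all genes) and 6 were lower (3.47%). DESeq2 also called 2 members at 12 hours.

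At 24 hours, 18 of 48 were called lower than at time 0, against 16.8% of 11444 genes, and 3 were called higher, against 12.0%. Without A4galt, 17 of 47 were called lower. The median log2 fold change of the tested members was -0.36 at 24 hours and -0.04 at 12 hours, beside -0.02 and -0.005 over all tested genes. Between 12 and 24 hours, 16 of 48 were called lower, against 15.3% of 11394 genes, and 2 were called higher, against 10.4%. Of the 18 members called lower against time 0, all but B3gnt7 and B4galnt2 were also called lower against 12 hours, and St3gal3 and St6galnac2 were called higher in both of these comparisons. The 12-hour and 24-hour comparisons share the time 0 libraries, and the comparison of 24 with 12 hours shares libraries with both, so their counts are not independent of each other. Calls near the fold threshold moved with the scaling: by total counts, which move the median of all tested genes to -0.24, 23 members were called lower and 2 higher, and so were 26.3% and 6.10% of all genes.

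**Figure D1:**
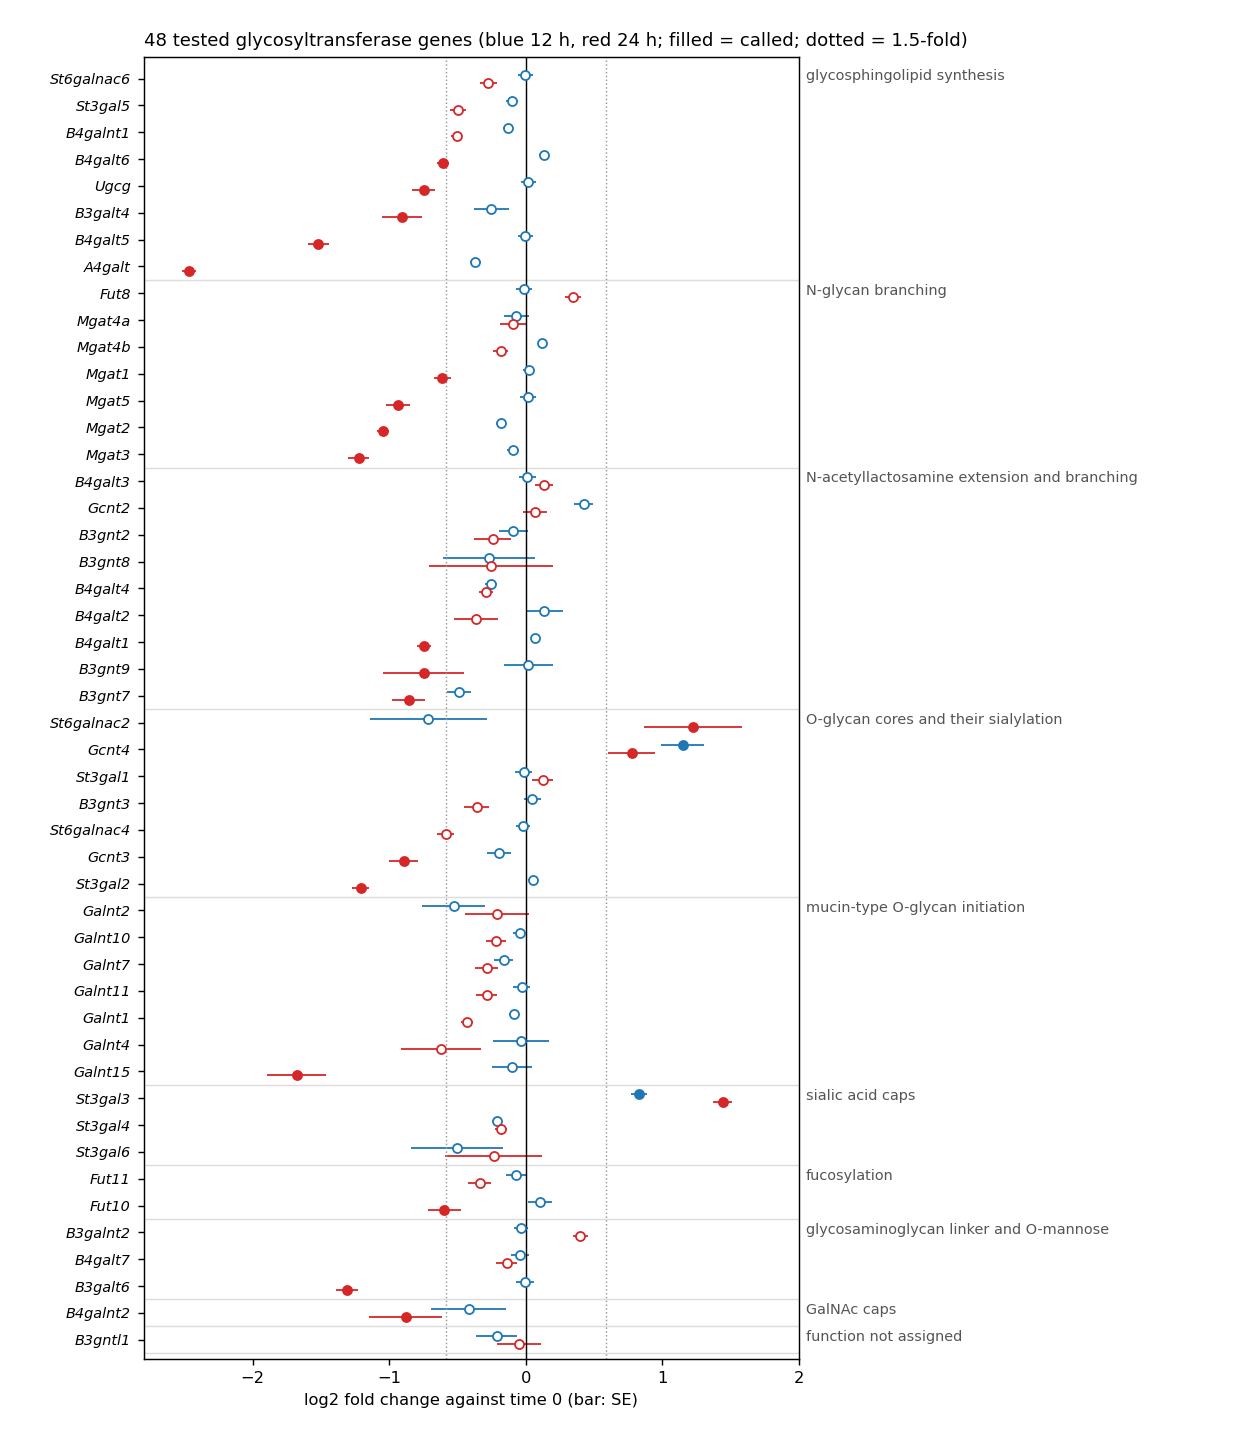
Log2 fold change of the 48 tested glycosyltransferase genes against time 0 at 12 hours (blue) and 24 hours (red), ordered by role, with the SE as bars; filled points were called and dotted lines mark a 1.5-fold change. At 24 hours all 8 glycosphingolipid genes lie below 0, as do 5848 of all 11444 tested genes, and St3gal3 is the highest point at 1.44.

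All 8 tested glycosphingolipid genes had estimates below 0 at 24 hours, as had 5848 of the 11444 genes tested, and A4galt was the lowest. Besides A4galt, 4 of 7 were called lower, against 16.8% of all genes, and 0 of 7 higher, against 12.0%, with a median log2 fold change of -0.60. A4galt (ENSMUSG00000047878, chr15:83226722-83251774) encodes the galactosyltransferase that turns lactosylceramide into globotriaosylceramide, the first lipid of the globo series. Its counts in the 3 libraries were 11505, 10243 and 12112 at time 0, 8283, 7951 and 7577 at 12 hours, and 1557, 2054 and 1991 at 24 hours. The 3 times did not overlap, and the 24-hour libraries lay far below both other times. In CPM the level went from 227 ± 10.4 (SD, n = 3) to 175 ± 5.31 and 40.9 ± 2.46, which is 1.29-fold lower at 12 hours and 5.53-fold lower at 24 hours than at time 0. The log2 fold change was -0.37 (SE 0.038) at 12 hours and -2.47 (SE 0.054) at 24 hours. Leaving out any library kept the 24-hour value between -2.50 and -2.41, and the other settings between -2.69 and -2.44. Among the counts of all 69 genes, the share of A4galt was 10.7% at time 0, 8.56% at 12 hours and 2.86% at 24 hours.

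The enzymes that supply lactosylceramide to A4galt also fell. Ugcg, glucosylceramide synthase, the entry step of the pathway, was at 23.6, 22.5 and 22.5 CPM at time 0, at 23.8, 23.7 and 21.9 CPM at 12 hours, and at 15.6, 12.8 and 12.5 CPM at 24 hours. Time 0 and 12 hours overlapped, and every 24-hour library was lower, with a log2 fold change of -0.75 (SE 0.086, edgeR adjusted p = 3.8e-06). B4galt5 and B4galt6 are both lactosylceramide synthases. B4galt5 was at 23.6, 21.4 and 22.7 CPM at time 0 and at 23.1, 22.9 and 21.4 CPM at 12 hours, then at 8.11, 7.75 and 7.70 CPM at 24 hours (log2 fold change -1.52, SE 0.076, edgeR adjusted p = 1.5e-09). B4galt6 was at 85.3, 82.0 and 82.7 CPM at time 0, at 92.1, 92.5 and 88.6 CPM at 12 hours, and at 55.2, 53.1 and 55.7 CPM at 24 hours (log2 fold change -0.60, SE 0.044, edgeR adjusted p = 4.2e-08). The 2 synthases moved apart, in that the ratio of B4galt6 to B4galt5 counts was 3.70 ± 0.122 at time 0, 4.06 ± 0.0772 at 12 hours and 6.96 ± 0.233 at 24 hours (SD, n = 3), without overlap between the times. Such a ratio of counts depends on the lengths of both genes, so only its change over time is compared. The call of B4galt6 was close to the threshold and was lost with upper-quartile scaling (-0.57) and without time 0 replicate 1 (-0.57) or 24-hour replicate 2 (-0.58). It was also lost by glmTreat, which tests for a change beyond 1.5-fold.

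The first enzymes of the ganglioside branch, which competes with A4galt for lactosylceramide, were under the fold threshold. St3gal5, the synthase of ganglioside GM3, was at 82.8, 76.6 and 78.3 CPM at time 0, at 75.9, 68.6 and 76.3 CPM at 12 hours, and at 54.3, 52.2 and 61.5 CPM at 24 hours. B4galnt1, which adds N-acetylgalactosamine to make GM2, was at 212, 200.5 and 208 CPM, then 189, 187 and 187 CPM, then 141, 146 and 148 CPM. In both genes the 24-hour libraries lay below all others, yet neither reached a 1.5-fold change. St3gal5 was at -0.49 on the log2 scale against time 0 (SE 0.060, edgeR adjusted p = 6.2e-06) and B4galnt1 at -0.51 (SE 0.040, edgeR adjusted p = 1.1e-07). Of the exon bases of B4galnt1, 20.7% overlap Slc26a10 on the other strand, whose reads cannot be told apart without strand. The counts of the pair kept nearly the same ratio, 0.383 ± 0.00726 at time 0, 0.392 ± 0.0218 at 12 hours and 0.386 ± 0.0297 at 24 hours for St3gal5 over B4galnt1. By contrast, the ratio of A4galt to St3gal5 counts was 2.87 ± 0.0218, 2.38 ± 0.113 and 0.733 ± 0.0715 at the 3 times. By total counts both passed the threshold, St3gal5 at -0.72 and B4galnt1 at -0.73, and with the offsets for length and GC content St3gal5 was at -0.62 and B4galnt1 at -0.40.

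Further along the ganglioside branch, B3galt4, the galactosyltransferase that makes GM1, fell from 3.32 ± 0.167 CPM at time 0 to 1.77 ± 0.0391 CPM at 24 hours (log2 fold change -0.91, SE 0.15, edgeR adjusted p = 9.6e-05). Its 3 libraries were at 3.43, 3.13 and 3.42 CPM at time 0, at 2.97, 2.82 and 2.56 CPM at 12 hours, and at 1.81, 1.76 and 1.73 CPM at 24 hours, without overlap. St6galnac6, which adds sialic acid to N-acetylgalactosamine of gangliosides, was at 27.9 ± 1.18, 27.8 ± 2.01 and 23.0 ± 1.2 CPM and was not called (log2 fold change -0.28, edgeR adjusted p = 0.0014). The summed level of the glycosphingolipid genes without A4galt was 435 to 457 CPM at time 0, 424 to 437 CPM at 12 hours and 296 to 310 CPM at 24 hours, so time 0 and 12 hours overlapped and 24 hours was lower. With A4galt the sum was 655 to 696, 596 to 618 and 338 to 352 CPM. The remaining 2 members of this role did not pass the filter on low counts: B3galnt1, the globoside synthase that extends the product of A4galt, had 0 counts in every time 0 library, at most 2 in the 12-hour libraries and 2, 7 and 3 at 24 hours, and St6galnac5 had 6 counts in all. With no filter, B3galnt1 was called higher at 24 hours (edgeR adjusted p = 0.017), against the direction of the tested genes of this role, on a total of 16 counts.

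**Figure D2:**
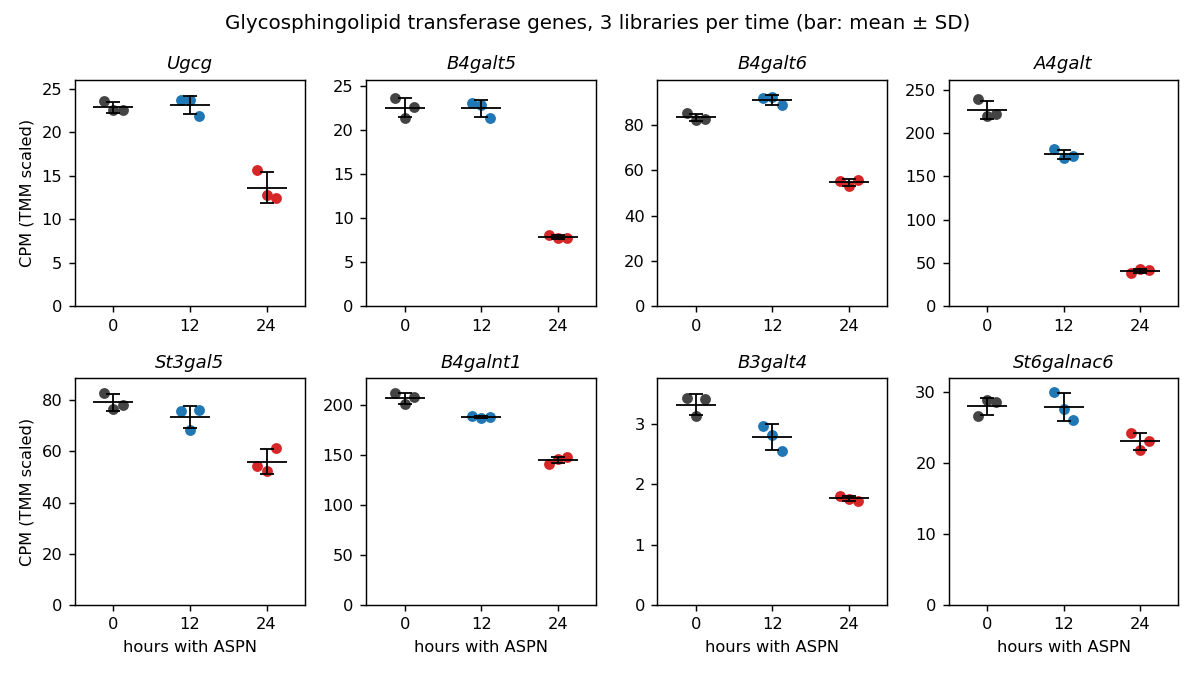
Level in CPM (TMM scaled, linear axis from 0) of the 8 tested glycosphingolipid genes in each of 3 libraries at 0, 12 and 24 hours with ASPN, with the mean ± SD. All 24-hour libraries lie below all time 0 libraries in each panel, and the share of all genes that do so was not counted. By the adjusted p alone, all 7 genes besides A4galt are lower, beside 36.5% of all tested genes. The A4galt panel drops from 227 to 40.9 CPM.

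In the N-glycan branching pathway, 4 of 7 tested genes fell at 24 hours and none rose (against 16.8% lower and 12.0% higher over all genes, median log2 fold change -0.61). Mgat1 adds the first branch of hybrid and complex N-glycans. Its level was 55.3, 53.5 and 53.1 CPM at time 0, 53.9, 52.9 and 57.2 CPM at 12 hours, and 32.0, 38.4 and 35.1 CPM at 24 hours (log2 fold change -0.61, SE 0.062, edgeR adjusted p = 1.1e-06). The Mgat1 call did not hold with upper-quartile scaling (-0.58), with the length and GC offsets (-0.46) or by glmTreat. Leaving out time 0 replicate 1 (-0.57) or 24-hour replicate 1 (-0.55) also ended it. Mgat2, which adds the branch that follows, was at 144, 136 and 141 CPM at time 0, 121, 123 and 128 CPM at 12 hours, and 65.5, 67.8 and 70.2 CPM at 24 hours. Mgat2 was thus lower at 24 hours than at either other time in every library, with a value of -1.04 on the log2 scale (SE 0.044, edgeR adjusted p = 3.8e-10). At 12 hours Mgat2 was at -0.18 (edgeR adjusted p = 0.0021), under the fold threshold but without overlap with time 0.

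Mgat3, which adds the bisecting N-acetylglucosamine, had the largest decrease of the group. Its 3 libraries were at 76.7, 67.5 and 68.7 CPM at time 0, at 65.3, 66.5 and 67.3 CPM at 12 hours, and at 26.4, 32.6 and 31.6 CPM at 24 hours, a log2 fold change of -1.22 (SE 0.075, edgeR adjusted p = 9.4e-09). Mgat5, whose branch is commonly extended with polylactosamine, fell from 30.9 ± 2.42 to 16.1 ± 1.79 CPM (log2 fold change -0.94, SE 0.085, edgeR adjusted p = 3.8e-07). Its level at 12 hours, 31.2 ± 2.00 CPM, overlapped time 0. Mgat4b, which adds another branch, was at 217 ± 8.75 CPM at time 0, 236 ± 2.14 CPM at 12 hours and 191 ± 13.8 CPM at 24 hours, under the fold threshold at both times. The ratio of Mgat3 to Mgat4b counts was 0.326 ± 0.0114 at time 0, 0.282 ± 0.00671 at 12 hours and 0.158 ± 0.00651 at 24 hours. Fut8, the core fucosyltransferase, was chosen after its values were seen, as the only gene of this role with a fold change above 0 at 24 hours. It was at 17.3 ± 0.249, 17.1 ± 0.324 and 21.9 ± 0.731 CPM, a difference of 0.35 on the log2 scale that was below the fold threshold (edgeR adjusted p = 0.00021). Mgat4a was at 7.66 ± 0.510 CPM at time 0 and 7.16 ± 0.564 CPM at 24 hours, with overlapping libraries.

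Of the 9 tested genes that extend or branch N-acetyllactosamine, 3 fell and none rose, against 16.8% and 12.0% over all genes. B4galt1, the main galactosyltransferase of N-glycan antennae, was at 259, 247 and 245 CPM at time 0, at 261, 260.2 and 263 CPM at 12 hours, and at 136, 158 and 152 CPM at 24 hours. The 24-hour libraries lay far below the rest, with a log2 fold change of -0.75 (SE 0.053, edgeR adjusted p = 3.9e-08). B3gnt7, an N-acetylglucosaminyltransferase, was already lower at 12 hours: its libraries were at 19.6, 16.2 and 15.1 CPM at time 0, at 11.8, 11.7 and 12.6 CPM at 12 hours, and at 7.77, 9.34 and 10.8 CPM at 24 hours. The times did not overlap, and B3gnt7 was at -0.49 on the log2 scale at 12 hours (SE 0.090, edgeR adjusted p = 0.0013, under the fold threshold) and at -0.86 at 24 hours (SE 0.12, edgeR adjusted p = 3e-05). B3gnt9 was called on low levels, 1.64, 1.57 and 1.45 CPM at time 0 against 1.15, 1.16 and 0.464 CPM at 24 hours (log2 fold change -0.75, SE 0.29, edgeR adjusted p = 0.036). That call rests on 24-hour replicate 3, without which the value was -0.42 (adjusted p = 0.12), and it was also lost without any one of the time 0 libraries, with values of -0.78 to -0.69 (adjusted p of 0.062 to 0.10). Nor was B3gnt9 called by glmTreat.

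Gcnt2 and B4galt4 were chosen after their values were seen, as members past the adjusted p at 12 hours. Gcnt2, the enzyme of I-antigen branching, was at 13.0, 11.7 and 11.9 CPM at time 0, at 15.9, 16.8 and 16.3 CPM at 12 hours and at 12.3, 14.0 and 11.9 CPM at 24 hours. Every 12-hour library was above every time 0 library, by 0.42 on the log2 scale (SE 0.071, edgeR adjusted p = 0.00052), under the fold threshold, while 24 hours overlapped time 0. B4galt4, a galactosyltransferase, was at 35.6 ± 0.685 CPM at time 0, 29.8 ± 0.418 CPM at 12 hours and 29.0 ± 0.908 CPM at 24 hours, with log2 fold changes of -0.25 and -0.29 that did not reach the threshold. The other 4 tested genes of this role, B3gnt2, B3gnt8, B4galt2 and B4galt3, had log2 fold changes of -0.36 to 0.14 at 24 hours and did not pass the adjusted p. The exons of B3gnt2 and B4galt2 overlap other genes on the same strand over 58.6% and 28.2% of their bases, so their counts are uncertain.

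Of the 3 tested genes that cap chains with sialic acid, 1 rose at 24 hours, against 12.0% of all genes, and none fell, against 16.8%. This gene, St3gal3 (ENSMUSG00000028538, chr4:117932154-118134914), adds sialic acid to galactose at the ends of N-acetyllactosamine chains, and it rose at both times. Its level was 14.9, 15.5 and 15.8 CPM at time 0, 26.4, 29.4 and 26.0 CPM at 12 hours, and 39.2, 46.3 and 39.5 CPM at 24 hours. Each time lay wholly above the earlier ones. Its rise on the log2 scale was 0.83 by 12 hours (SE 0.061, edgeR adjusted p = 5.3e-08), 1.44 by 24 hours (SE 0.072, edgeR adjusted p = 1.5e-09) and 0.63 from 12 to 24 hours (SE 0.071, edgeR adjusted p = 2.8e-06). The last of these was under the threshold by total counts (0.41) and without 24-hour replicate 2 (0.55). St3gal2, counted with the O-glycan genes below, which caps core 1 O-glycans and gangliosides, was at 86.0, 81.2 and 82.7 CPM at time 0 and at 84.4, 87.9 and 86.0 CPM at 12 hours, then fell to 32.8, 39.5 and 35.4 CPM at 24 hours (log2 fold change -1.21, SE 0.062, edgeR adjusted p = 1.7e-09). The ratio of St3gal3 to St3gal2 counts thus went from 0.185 ± 0.0104 at time 0 to 0.316 ± 0.0163 at 12 hours and 1.16 ± 0.0407 at 24 hours. St3gal4, which acts on the same chain ends as St3gal3, was at 55.9 ± 1.15 CPM at time 0, 48.2 ± 0.765 CPM at 12 hours and 49.1 ± 1.22 CPM at 24 hours and was not called. The ratio of St3gal3 to St3gal4 counts was 0.275 ± 0.0129, 0.566 ± 0.0466 and 0.849 ± 0.0997 at the 3 times. St3gal6 was at 0.871 ± 0.358 CPM at time 0 and 0.742 ± 0.222 CPM at 24 hours, with overlapping libraries.

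**Figure D3:**
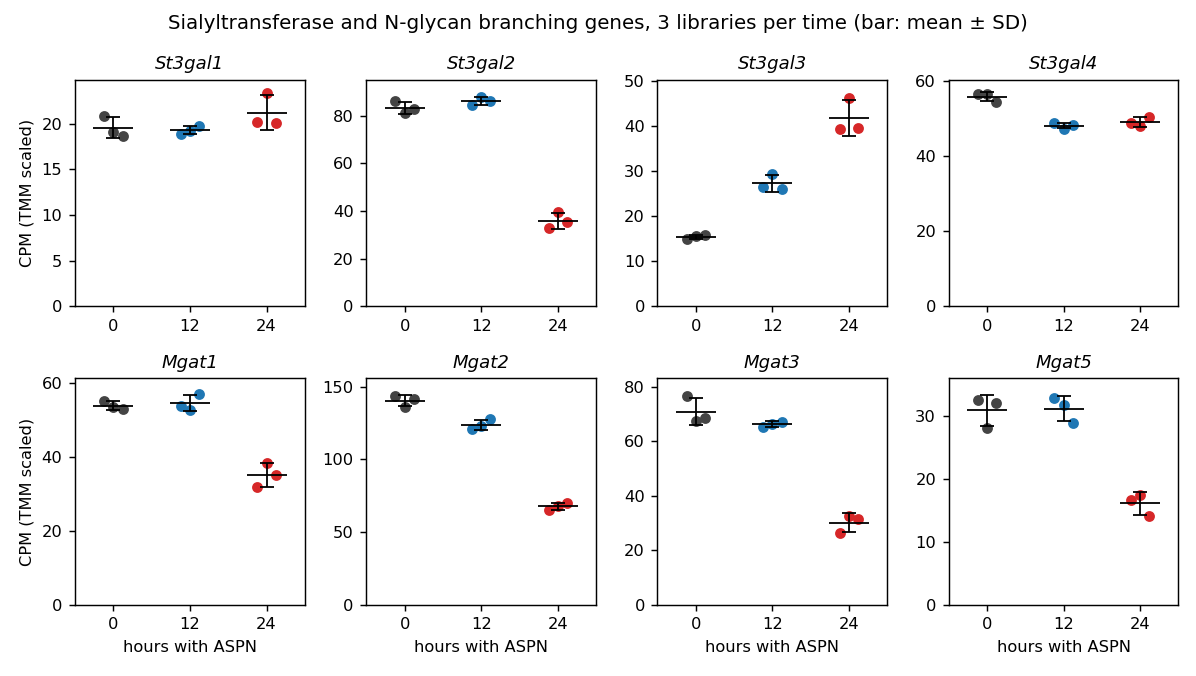
Level in CPM (TMM scaled, linear axis from 0) of the St3gal1 to St3gal4 and the Mgat1, Mgat2, Mgat3 and Mgat5 genes in each of 3 libraries at 0, 12 and 24 hours with ASPN, with the mean ± SD. St3gal3 climbs from 15.4 to 41.7 CPM while St3gal2 and the 4 Mgat genes drop at 24 hours.

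Among the 7 tested genes of O-glycan cores and their sialylation, 2 fell and 2 rose at 24 hours, against 16.8% and 12.0% over all genes. St3gal2 and Gcnt3 fell. Gcnt3, a core 2 branching enzyme, was at 7.37, 7.34 and 7.73 CPM at time 0 and at 4.18, 4.18 and 3.67 CPM at 24 hours (log2 fold change -0.89, SE 0.11, edgeR adjusted p = 5.6e-06). Gcnt4, another core 2 enzyme, rose instead, from a low level. It was at 1.66, 1.37 and 1.41 CPM at time 0, at 3.41, 3.55 and 2.88 CPM at 12 hours, and at 2.44, 2.75 and 2.38 CPM at 24 hours. All 12-hour and 24-hour libraries lay above time 0, by 1.15 on the log2 scale at 12 hours (SE 0.16, edgeR adjusted p = 6.9e-05) and 0.78 at 24 hours (SE 0.17, edgeR adjusted p = 0.0013). By total counts the 24-hour value was 0.56 and was not called, and by glmTreat the 24-hour change was not called either. St6galnac2, which adds sialic acid to the innermost sugar of O-glycans, was at 0.706, 0.279 and 0.331 CPM at time 0, at 0.306, 0.301 and 0.183 CPM at 12 hours and at 1.07, 0.787 and 1.20 CPM at 24 hours (log2 fold change 1.22, SE 0.36, edgeR adjusted p = 0.0081). These values are those of ENSMUSG00000057286; another gene of the same symbol, ENSMUSG00000110170, shares 383 bp of exon with it on the same strand, had 32 counts in all and was not tested, so the split of reads between them is uncertain. St6galnac4, chosen after its values were seen, lay just under the fold threshold at -0.58 (SE 0.063, edgeR adjusted p = 2e-06), with 27.3 ± 1.17 CPM at time 0 and 18.1 ± 0.751 CPM at 24 hours. It was called without time 0 replicate 1 (-0.60), 24-hour replicate 1 (-0.59) or 24-hour replicate 3 (-0.61) and by total counts (-0.81), with no filter (-0.59), with the 10-count filter (-0.59), in the fit over all 9 libraries (-0.59) and by the adjusted p alone, and was at -0.35 with the length and GC offsets. B3gnt3 was at 25.4 ± 2.06 CPM at time 0 and 19.7 ± 2.65 CPM at 24 hours, and St3gal1, which caps the same core 1 chains as St3gal2, was at 19.6 ± 1.18 and 21.2 ± 1.87 CPM; neither was called.

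Among the 7 tested genes that start mucin-type O-glycans, 1 was called at 24 hours, and it was lower (16.8% of all genes were). This was Galnt15, falling from 10.1, 7.72 and 6.22 CPM at time 0 and 6.17, 8.18 and 8.0 CPM at 12 hours to 1.61, 2.59 and 3.21 CPM (log2 fold change -1.68, SE 0.22, edgeR adjusted p = 1.2e-05). All 7 estimates were below 0 at 24 hours, as were 5848 of the 11444 genes tested, with a median of -0.29 beside -0.02 over all tested genes. Galnt1, the member of this role with the highest level per length, was at 79.7 ± 3.77 CPM at time 0, 74.9 ± 0.587 CPM at 12 hours and 58.9 ± 1.20 CPM at 24 hours, 1.35-fold lower and not called. Galnt7, Galnt10 and Galnt11 were at -0.29, -0.22 and -0.29 on the log2 scale, with every 24-hour library below time 0 and none past the fold threshold. Galnt4, chosen after its values were seen, was 1.54-fold lower but missed the adjusted p (0.074), and its libraries overlapped between the times. The reads of Galnt2 are uncertain, because 90.0% of its exon bases are shared with a read-through gene on the same strand that has no row of its own in the table.

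In the synthesis of the glycosaminoglycan linker, B3galt6, the galactosyltransferase that adds the second galactose, was at 16.6, 18.6 and 18.0 CPM at time 0, at 18.2, 17.1 and 17.5 CPM at 12 hours, and at 6.91, 7.25 and 7.20 CPM at 24 hours. It fell by 1.31 on the log2 scale at 24 hours (SE 0.082, edgeR adjusted p = 1.1e-08), and its 12-hour libraries overlapped time 0. B4galt7, which acts just before it, was not called. B3galnt2, an enzyme of the O-mannose glycans of dystroglycan, was at 76.2, 86.9 and 74.5 CPM at time 0 and at 108, 104 and 101 CPM at 24 hours, above time 0 in every library but under the fold threshold (log2 fold change 0.40, SE 0.057, edgeR adjusted p = 2.9e-05). Fut10, a fucosyltransferase, was called at the edge of the threshold, at 7.0, 6.91 and 7.11 CPM at time 0 and 4.96, 3.85 and 5.06 CPM at 24 hours (log2 fold change -0.60, SE 0.12, edgeR adjusted p = 0.00059). The Fut10 call was lost with DESeq2 (-0.58), with RLE (-0.58) and upper-quartile (-0.56) scaling, with the length and GC offsets (-0.57) and without time 0 replicate 1 (-0.58), time 0 replicate 3 (-0.57) or 24-hour replicate 2 (-0.48). It was also lost by glmTreat. Fut11 was at 11.8 ± 0.233 CPM at time 0 and 9.33 ± 0.590 CPM at 24 hours and was not called. B4galnt2, which adds the N-acetylgalactosamine cap of the Sda antigen, was at 1.10, 1.09 and 0.973 CPM at time 0 and 0.489, 0.518 and 0.696 CPM at 24 hours (log2 fold change -0.88, SE 0.27, edgeR adjusted p = 0.0095). Genes on the other strand overlap 15.3% of the exon bases of B4galnt2, 16.5% of B3gnt9, 12.6% of B3gnt7 and 10.5% of Gcnt4. Reads of those genes cannot be told apart without strand. B3gntl1 was at 5.53 ± 1.26 CPM at time 0 and 5.32 ± 0.737 CPM at 24 hours.

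To compare genes with each other, levels were divided by exon length (CPM per kb of exon). On this scale A4galt was the highest of the 69 genes at time 0, at 99.7 ± 4.57 (SD, n = 3), followed by Mgat4b at 80.0 ± 3.22, B4galnt1 at 59.8 ± 1.64, B4galt1 at 59.1 ± 1.73, Mgat2 at 53.8 ± 1.49 and St3gal5 at 30.3 ± 1.23. Of these neighbors, B4galnt1 and B4galt1 did not differ beyond their spread. At 12 hours Mgat4b was first at 86.7 ± 0.785 and A4galt second at 76.9 ± 2.33. At 24 hours the order was Mgat4b at 70.1 ± 5.07, B4galnt1 at 42.0 ± 0.930, B4galt1 at 35.1 ± 2.74, Mgat2 at 26.0 ± 0.892, St3gal5 at 21.4 ± 1.87 and A4galt at 17.9 ± 1.08, and the SD ranges of St3gal5 and A4galt did not overlap. St3gal3 moved the other way, from 5.56 ± 0.166 to 15.0 ± 1.44 per kb, or from place 19 to place 9 among the 69 genes. St3gal2 went from place 8 to place 14 and Mgat3 from 9 to 15.

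**Figure D4:**
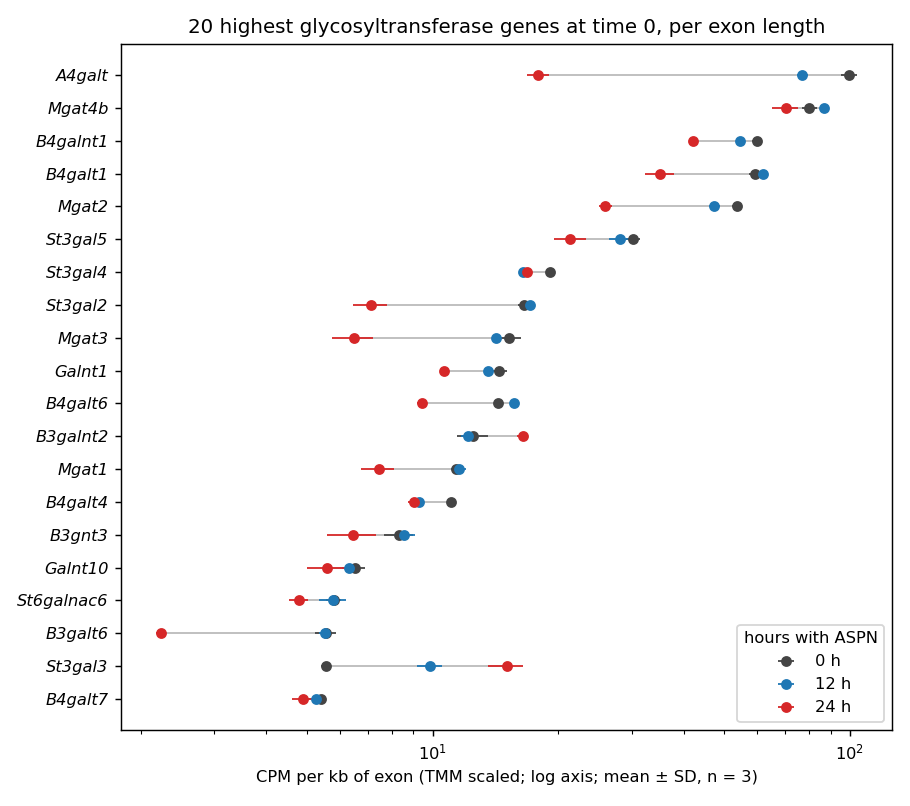
Level in CPM per kb of exon (TMM scaled, logarithmic axis) of the 20 highest glycosyltransferase genes at time 0, as mean ± SD of 3 libraries at 0 (black), 12 (blue) and 24 hours (red). A4galt moves from the top, at 99.7, to 17.9 at 24 hours, while Mgat4b stays between 70.1 and 86.7.

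The coding region of several of these genes, A4galt among them, lies in 1 exon, a feature that the choice by symbol did not use. At 24 hours, 8 of the 12 tested members with 1 coding exon were called lower (66.7%, median log2 fold change -0.82). Of the 36 with 2 or more coding exons, 10 were called lower (27.8%, median -0.29). Over all tested genes, 245 of 607 with 1 coding exon were called lower (40.4%, median -0.42) and 1675 of 10820 with 2 or more (15.5%, median 0.0005). Without A4galt, 7 of 11 members with 1 coding exon were called lower (63.6%, median -0.75). The difference between the shares was not tested. A4galt, B3galt6, Mgat1, Mgat2, Mgat3, B3galt4, Gcnt3 and B3gnt9 were the 8 lower members with 1 coding exon, and Gcnt4, which has 1 coding exon too, rose. With offsets for length and GC content, 7 of the 12 were called lower. The 3′ untranslated regions of the tested members had a median length of 2110 bp, against 932 bp over all tested genes, and their exons had a median GC content of 51.6%, against 50.7%. How far gene structure accounts for the fold changes was not tested.

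**Figure D5:**
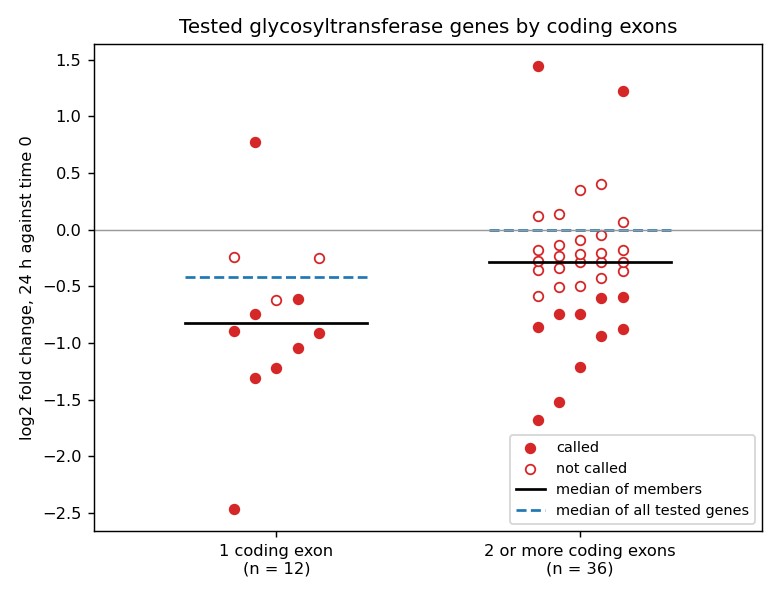
Log2 fold change at 24 hours against time 0 of the 12 tested members with 1 coding exon and the 36 with 2 or more; filled points were called, black lines are the medians of the members and dashed lines those of all tested genes. The medians of the members are -0.82 and -0.29, below those of all tested genes.

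The genes that feed or accompany the glycosyltransferases were counted in the same way. None of the 7 lists below had a called gene at 12 hours. At 24 hours, 11 of 19 tested genes fell and none rose in a list of Golgi transferases outside the symbol families and genes that serve them, such as the chaperone C1galt1c1, which fell, and the ion transporter Tmem165, which was not called. Over all genes 16.8% were lower and 12.0% higher. The median log2 fold change of the list was -0.61, the lowest being Lfng, the lunatic fringe enzyme that modifies Notch (13.6 to 4.54 CPM, -1.58, SE 0.095, edgeR adjusted p = 7.8e-09). Of these 11, 3 were Extl1, Extl2 and Extl3, which act in heparan sulfate synthesis, and Chsy1 and Chpf act in chondroitin synthesis. Leaving out a library left 9 or 10 of them called, and the length and GC offsets 8.

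Of 13 nucleotide sugar transporters, 5 fell and none rose (16.8% and 12.0% over all genes), led by Slc35d1 (15.5 to 4.66 CPM, log2 fold change -1.74, SE 0.12, edgeR adjusted p = 2.1e-08), with a median of -0.39. The trimming of N-glycans, whose steps lie before and just after that of Mgat1, had 3 of 7 genes lower and none higher (16.8% and 12.0% over all genes), the lowest being the glucosidase Mogs at -0.85 (SE 0.076, edgeR adjusted p = 3.2e-07), with a median of -0.44. The synthesis of nucleotide sugars showed no such direction, with 2 of 22 lower, 2 higher (16.8% and 12.0% over all genes) and a median of 0.06. Gmppb, which makes GDP-mannose, was the lowest at -1.09 and Pmm1, a phosphomannomutase, the highest at 0.64. By total counts neither of the 2 higher genes, Tsta3 and Pmm1, was called, and leaving out time 0 replicate 1, 24-hour replicate 1 or 24-hour replicate 3 left 1 of them.

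Synthesis of ceramide, the lipid that Ugcg uses, had 1 of 13 genes lower (Sptlc1, a subunit of serine palmitoyltransferase, -0.79, SE 0.064, edgeR adjusted p = 1.4e-07) and none higher (16.8% and 12.0% over all genes), with a median of -0.09. Among 14 genes that break glycosphingolipids down, 1 was called lower and none higher (against 16.8% and 12.0%). This was Neu3, a ganglioside sialidase of the plasma membrane rather than of the lysosome (6.60 to 2.06 CPM, log2 fold change -1.68, SE 0.14, edgeR adjusted p = 1.7e-07), and the median of that list was 0.14, above that of all genes. The COG complex and Golgi matrix, which hold the compartment together, had 1 of 22 genes lower (Gcc1, -1.37) and 1 higher (Golm1, 0.67), against 16.8% and 12.0% over all genes, with a median of -0.12. By total counts 5 of these 22 were lower and none higher, beside 26.3% and 6.10% of all genes.

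The other 21 of the 69 genes had too few counts to pass the filter and were left out of every comparison above. None had more than 16 counts in a library, and their sums over the 9 libraries ran from 1 to 67. They include the fucosyltransferases Fut1, Fut2, Fut4 and Fut7, Galnt3, Galnt6, Galnt12 and Galnt16, Mgat4c, Mgat4d, Mgat4f and Mgat5b, and St6galnac1. Several were at or under the floor of 3 counts in every library, which at this depth allows no statement on their change. The highest sums were those of Gcnt7 (67 counts) and B3gnt6, the core 3 synthase (43 counts), of which B3gnt6 had 1 to 6 counts at time 0 and 5 to 13 at 24 hours.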

How the data were processed

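RNA-Seq counts of 9 MyC-CaP libraries were analyzed, 3 each at 0, 12 and 24 hours with ASPN, grouped by the labels. Per the study's methods and the labels, the authors trimmed the 150 bp paired-end reads with Cutadapt, aligned them to GRCm38 with STAR and counted them on GENCODE genes with featureCounts, and the deposited values are raw counts of 15384 protein-coding genes with no normalization. Whether counting used strand, and how these genes were selected, are not given in the sources used here. The table was used as deposited.

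Genes passing filterByExpr were scaled with TMM factors and tested in pairs of times with edgeR 4.0.16 (glmQLFit, glmQLFTest, no block) in R 4.3.3. P-values were Benjamini-Hochberg adjusted over all tested genes, and a call needed an adjusted p of at most 0.05 with a 1.5-fold change, as in the study. Alternatives were DESeq2 1.42.0, RLE, upper-quartile and total-count scaling, no filter or a stricter one (10 counts in each library), 1 fit over all 9 libraries, a replicate block, glmTreat, the adjusted p alone, loess offsets for length and GC content (R's loess function, span 0.3), and each library left out. The calculations were tested on simulated data.

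Exon lengths and gene positions come from GENCODE M21, in which all 69 members had the same coordinates as in the table, and promoter windows from RefSeq on GRCm38.p6, matched by symbol (49 member symbols). Levels are TMM-scaled CPM, their SD and SE hold the spread between cultures, and the floor of 3 counts covers counting error only. The members, their roles and the other lists were chosen with earlier results of these data known. An epithelial marker is not reported here. Named genes were the glycosphingolipid genes, every called member, the member with the highest level per length in each role, and, for other lists, the highest and lowest called genes; any other gene was named after its values were seen.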

Additional observations from a re-analysis of the deposited data

Results flagged for a closer look

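Both B4galt6 and Mgat4b were past the adjusted p in opposite directions at 12 and at 24 hours against time 0, and the difference between 12 and 24 hours was itself tested. B4galt6 was 0.13 higher on the log2 scale at 12 hours (edgeR adjusted p = 0.018) and fell to -0.60 at 24 hours, and from 12 to 24 hours its log2 fold change was -0.71 (SE 0.040, edgeR adjusted p = 4e-09). Mgat4b was 0.12 higher at 12 hours (edgeR adjusted p = 0.033) and at -0.18 at 24 hours (edgeR adjusted p = 0.0071), and between 12 and 24 hours it was at -0.28 (SE 0.046, edgeR adjusted p = 8.6e-05). Both 12-hour differences are far under 1.5-fold. Leaving out a library took the adjusted p of the 12-hour difference as high as 0.11 for B4galt6 and 0.14 for Mgat4b, and that of the 24-hour difference of Mgat4b to 0.055 without time 0 replicate 1. With 3 libraries per time, single libraries were not tested as outliers.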

How the results depend on the processing

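The members called numbered 2 at 12 hours against time 0 under every alternative except the adjusted p alone, which gave 11 (beside 10.3% of all genes). At 24 hours against time 0 there were 21, with 18 to 25 under the other scalings, filters and fits, 13 by glmTreat, which tests for a change beyond 1.5-fold (beside 18.4% of all genes), and 36 of 48 by the adjusted p alone, near the 70.9% of all genes. The calls lost by glmTreat were those of Ugcg, B4galt6, Mgat1, B3gnt9, Fut10, B4galnt2, Gcnt4 and St6galnac2. From 12 to 24 hours there were 18, with 11 by glmTreat (beside 15.5% of all genes) and 34 of 48 by the adjusted p alone, near the 71.3% of all genes. Leaving out a library gave 2 to 2, 18 to 21 and 16 to 17. The same-numbered libraries did not deviate together (correlations of -0.11 to 0.057), so the numbers were not taken to pair them, and with the replicate block the counts were 2, 21 and 18. By total counts the median of all genes was at -0.24 at 24 hours against time 0 and at -0.22 against 12 hours, and the calls of all genes were 698 higher and 3008 lower in place of 1374 and 1924, and 484 and 2830 in place of 1184 and 1740. Members near 0 changed sign, and the cause was not tested. At 12 hours B4galt5 was at 0.0018 with the length and GC offsets, 0.0016 with the block added and -0.040 to 0.033 with a library left out. St6galnac6 was at 0.0016 with the offsets and -0.060 to 0.044 with a library left out, and Ugcg at -0.00081 by total counts and -0.0026 to 0.055 with a library left out. At 24 hours Gcnt2 was at -0.15 by total counts and -0.0075 to 0.14 with a library left out, and B3gntl1 at -0.14 to 0.16. Depth limits the 21 untested genes, and the absence of libraries kept without ASPN limits every comparison with time 0.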
